A study of Mus musculus with 6 samples.

Results

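The MHC class II genes and their activator Ciita were examined in ChIP-seq lists for H3K27ac, H3K4me3 and Pax5 from mouse pre-B cells. The 10 genes, chosen by name, were Ciita, Cd74, H2-Aa, H2-Ab1, H2-Eb1, H2-DMa, H2-DMb1, H2-DMb2, H2-Oa and H2-Ob, out of 22359 protein-coding genes in the GENCODE M1 annotation of mm9. Of these, 8 lie in the H2 region of chromosome 17, Ciita is on chromosome 16 and Cd74 on chromosome 18. For each gene, every entry of the 3 lists was taken that overlapped the gene body or the 10 kb on either side, and for Ciita it was asked which of the alternative starts was marked.

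All samples were RAG-/-µ+ pre-B cells from C57BL/6 mice of both sexes, 6 to 14 weeks old. The mice lack RAG and therefore make no rearrangements of their own, and every sample, controls included, carries a rearranged heavy chain transgene. The methods of the paper describe mice with a human heavy chain transgene on the Rag1-/- background. They do not state that the ChIP libraries came from these mice. The experiment has 6 samples, namely 1 ChIP library for each of the 3 targets and an input library for each, and the reads of the inputs are not used here. The cells thus reach the pre-B stage with 1 given heavy chain and no light chain, which limits them as a model of normal pre-B cells.

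MHC class II molecules present peptides from the endosomal pathway to CD4 T cells, and are made by B cells, dendritic cells and macrophages. Ciita binds no DNA itself but is recruited to a shared promoter module, in which the RFX complex occupies the X box and NF-Y occupies the Y box, and without it class II genes are barely transcribed. Ciita is itself switched on from several promoters used by different cell types. H3K4me3 marks active or poised promoters, H3K27ac marks active promoters and enhancers, and Pax5 is the factor that holds cells in the B lineage.

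The H3K27ac list held 69345 peaks with a median width of 428 bp, the Pax5 list 15445 peaks with a median width of 965 bp, and the H3K4me3 list 782636 bins of 25 bp without a value, which were joined across gaps of up to 100 bp into 17979 regions. Each H3K27ac and Pax5 peak has a score from the authors' peak caller. Its scale is not named, so a score was only ranked within its own list. The lists hold no read counts, so the depth is unknown, and with 1 library for each target none of the values has a replicate check or a test. Of 8 pre-B genes checked, 8 had H3K27ac, 8 had Pax5 and 6 had H3K4me3 within 1000 bp of a start, the exceptions being Vpreb1 and Igll1, which encode the surrogate light chain. The shares of all protein-coding genes were 48.3% for H3K27ac, 37.4% for Pax5 and 52.6% for H3K4me3.

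All 10 genes carried H3K27ac within 1000 bp of a protein-coding start, and all 10 carried H3K4me3 there. Pax5 lay at the starts of 4 of them, Ciita, Cd74, H2-DMb2 and H2-Ob. Among all protein-coding genes, 48.3% had H3K27ac at a start, 52.6% had H3K4me3, 37.4% had Pax5 and 34.3% had entries of all 3 lists. The share of the class II genes with Pax5 at a start was therefore close to that of genes in general, and so was the share with all 3. Within the gene body and its flanks, 10 of the genes had H3K27ac, 10 had H3K4me3 and 9 had Pax5, against 63.2%, 61.5% and 51.9% of all genes, and the gene without Pax5 was H2-Aa. Windows of neighbouring genes overlap, so these are not independent counts. H2-DMa, H2-DMb1 and H2-DMb2 had the same Pax5 peaks, and H2-Ab1 shared its Pax5 peak with H2-Ob. The Pax5 peaks in the window of H2-Eb1 lay nearest to the start of its neighbour H2-Eb2. A list entry does not tell whether it comes from all cells or from some of them.

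The highest H3K27ac score at a start ranged from 16.9 to 78.4 among the 10 genes, with a median of 29.9, beside 32.1 over the 10796 genes that had such a peak. In score, the class II promoters thus sat in the middle of marked genes. Their peaks were wide, with a median of 1410 bp for the widest at a start beside 869 bp over those genes. H3K4me3 went the other way, with a median region of 825 bp beside 1480 bp over the 11761 genes with a region at a start. The windows themselves were richly acetylated. H3K27ac peaks covered 8.49% to 29.8% of gene body plus flanks, with a median of 21.6%, beside 5.86% over genes with H3K27ac at a start. H3K4me3 covered a median of 7.43% beside 4.26%, and Pax5 5.86% beside 2.87% over the same genes. Windows of neighbouring class II genes overlap, so these percentages are not independent of each other. The genes compared were not matched for length or gene density. Ciita, the longest of the 10 genes, had the lowest H3K27ac coverage, 8.49%.

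**Figure D1:**
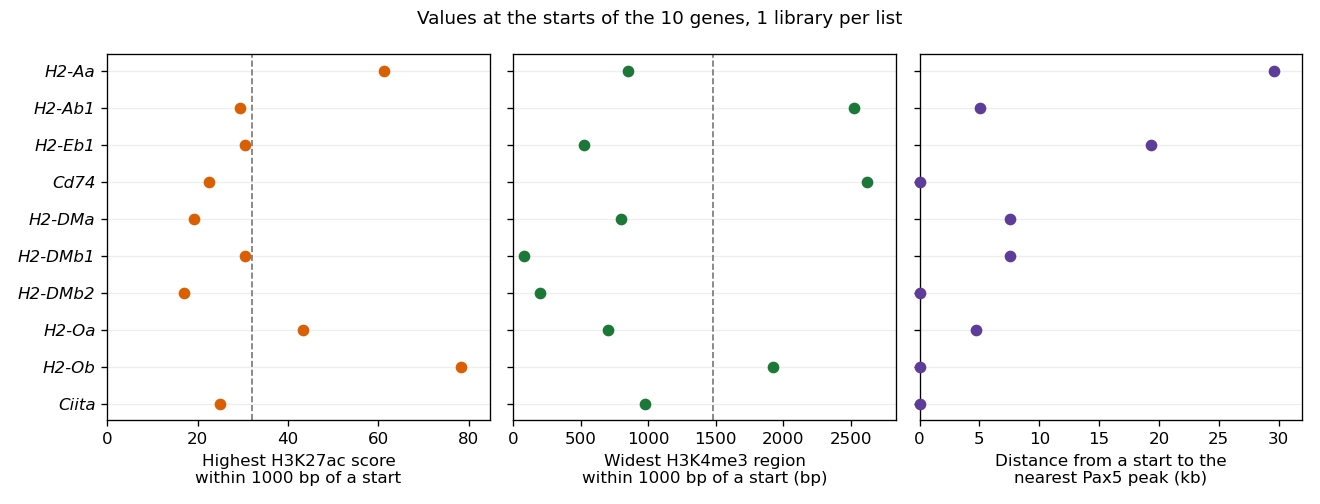
Values at the starts of the 10 genes, with 1 library per list and therefore no error bars. The panels show the highest H3K27ac score, the width of the widest H3K4me3 region in bp and the distance to the nearest Pax5 peak in kb, and the dashed lines are the medians of all genes with a value, 32.1 and 1480 bp. H2-Ob and H2-Aa have the highest H3K27ac scores, Cd74 and H2-Ab1 the widest H3K4me3 regions, and H2-Aa lies farthest from Pax5.

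Ciita, the master activator of the class II genes, has 3 separate starts in the annotation, on the plus strand at chr16:10480237-10527657. Its known promoters pI, pIII and pIV lie in this order along the gene and are known for use in dendritic cells, in B cells and after interferon gamma. The annotation does not name promoters, so they are matched to the starts here by their order alone. The starts differed in all 3 lists.

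At the start farthest upstream, position 10480237, no entry of any list lay within 500 bp. The nearest H3K27ac peak was 7157 bp away, the nearest H3K4me3 region 8016 bp and the nearest Pax5 peak 7576 bp. The start that would correspond to pI thus had no called mark in these cells.

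The middle start, where 4 transcripts begin between 10488271 and 10488392, carried all 3. It lies 8034 bp after the upstream start. An H3K27ac peak of 1637 bp, chr16:10487394-10489030, covered the whole of the window within 500 bp of these transcript starts with a score of 25.0. An H3K4me3 region of 975 bp, chr16:10488253-10489227, began just upstream of the transcript starts and filled 57.0% of that window. A Pax5 peak of 1807 bp, chr16:10487813-10489619, filled 96.3% of it, with a score of 389.7 that exceeded 66.6% of the genes with Pax5 at a start. By order this start would be pIII, the promoter known from B cells.

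The downstream start, position 10489876, where the single transcript Ciita-206 begins, was marked as well, but with lower scores. Small H3K27ac peaks at chr16:10489240-10489493 and chr16:10489780-10490197, had scores of 10.6 and 12.3. H3K4me3 regions of 775 bp and 25 bp covered 79.9% of the window, more than at the middle start. The Pax5 peak of the middle start ended 257 bp before this position, and no Pax5 peak reached it. The lists do not assign an entry to a transcript, so use of this start cannot be told apart from that of the middle start next to it.

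The highest Pax5 scores of all 10 genes lay inside Ciita and not at a start. A peak of 1330 bp, chr16:10508494-10509823, had a score of 1276, rank 355 of the 15445 Pax5 peaks. It lay 18618 bp after the downstream start and overlapped H3K27ac peaks with scores of 13.2 and 25.0. Another Pax5 peak, chr16:10495372-10496711, had a score of 800.1 and rank 1097, lay 5496 bp after the downstream start, and overlapped an H3K27ac peak of 1444 bp with a score of 11.7. Neither overlapped H3K4me3. The Pax5 peak at the middle start, by contrast, ranked 3748. Farther into the gene, H3K27ac peaks at chr16:10510573-10511150, chr16:10511553-10511776 and chr16:10515400-10515632 had scores of 9.75, 5.26 and 5.26 and no Pax5.

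Because it is the Pax5 peak with the highest score at any of the 10 genes, the central 300 bases of the peak at chr16:10508494-10509823 are shown, plus strand of mm9, chr16:10509009-10509308, in an intron of Ciita. No capitals are used, since neither GCGTGAC nor GAANNGAAA, the motifs described next, occurs in it.
Ciita intronic Pax5 peak: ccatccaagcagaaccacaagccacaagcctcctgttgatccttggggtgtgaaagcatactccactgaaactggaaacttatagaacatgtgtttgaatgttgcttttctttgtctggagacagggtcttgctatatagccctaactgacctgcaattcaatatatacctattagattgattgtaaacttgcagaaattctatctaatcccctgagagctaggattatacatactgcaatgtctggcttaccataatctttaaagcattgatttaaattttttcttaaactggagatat

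The letters GCGTGAC, a core of the site of the Pax5 paired domain, were searched on both strands in the central 300 bp of every Pax5 peak. They occurred in 5.71% of the 15445 peaks and in 0 of the 14 peaks in the windows of the class II genes, Ciita included. The composite ETS-IRF core GAANNGAAA, at which Spi1 and Irf4 or Irf8 bind together, occurred in 2 of these 14 peaks, the peak at the start of Cd74 and the one at the upstream edge of H2-DMb2, and in 9.01% of all. These letters are only a short part of what the factors recognise.

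**Figure D2:**
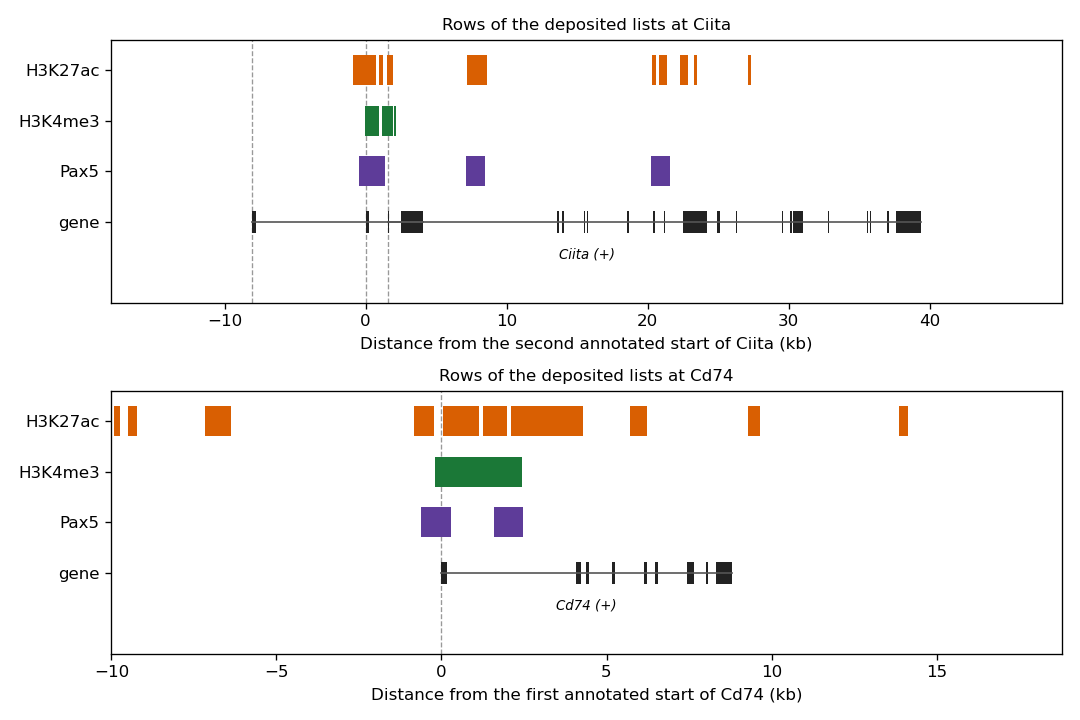
Entries of the 3 lists at Ciita, by distance in kb from its middle start, and at Cd74, by distance in kb from its start. Dark boxes are exons, dashed lines are annotated starts, and each coloured box is 1 peak or joined region. The upstream Ciita start, 8034 bp before the middle one, has no entry, whereas the middle start has all 3, and the Pax5 peaks of score 800.1 and 1276 lie inside the gene.

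Cd74 encodes the invariant chain, which fills the peptide groove of new class II molecules and guides them to endosomes. It lies at chr18:60963502-60972300, plus strand. Its H3K4me3 region of 2625 bp, chr18:60963307-60965931, was the widest of the 10 genes and wider than 92.6% of marked genes, while its H3K27ac score of 22.6 exceeded that of only 35.3%. The start lay between H3K27ac peaks. Of these, chr18:60962658-60963277 ended 225 bp before it with a score of 10.6, and chr18:60963541-60964641 began 31 bp after the nearest transcript start with a score of 22.6. The Pax5 peak at the start, chr18:60962888-60963786, had a score of 97.3, above only 3.72% of genes with Pax5 at a start.

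A further Pax5 peak in the intron of Cd74, chr18:60965092-60965977, had the higher score of 196. It lay within the H3K4me3 region and overlapped H3K27ac peaks with scores of 27.2 and 24.0, of which the latter was 2192 bp wide. The highest H3K27ac and the highest Pax5 score at Cd74 were both downstream of the start. The other 6 H3K27ac peaks of the gene and its flanks had scores of 7.40 or less.

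H2-Aa, H2-Ab1 and H2-Eb1 encode chains of the classical class II molecules, I-A alpha, I-A beta and I-E beta. All 3 had H3K27ac and H3K4me3 at their starts and none had Pax5 within 1000 bp. The nearest Pax5 peak was 5026 bp from a start of H2-Ab1, 19303 bp from one of H2-Eb1 and 29588 bp from one of H2-Aa. The peak nearest to H2-Ab1, chr17:34394585-34395128, with a score of 106, lay between H2-Ob and H2-Ab1, and it is the nearest to H2-Aa as well.

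H2-Aa, on the minus strand at chr17:34406276-34424772, had an H3K27ac peak of 2695 bp with a score of 61.4, above 79.2% of marked genes. Its H3K4me3 region was 850 bp wide. H2-Ab1, at chr17:34400154-34406363, showed the opposite balance, with a score of 29.4 for an H3K27ac peak of 2732 bp and an H3K4me3 region of 2525 bp, wider than 91.4% of marked genes. H2-Eb1, at chr17:34442828-34453144, had 2 H3K27ac peaks at its start with scores of 30.5 and 20.3 and a narrow H3K4me3 region of 525 bp. The products of H2-Aa and H2-Ab1 pair with each other, and their H3K27ac peaks were of nearly equal width, but the H3K27ac score was higher at H2-Aa and the H3K4me3 region wider at H2-Ab1. With 1 library for each target, neither contrast has an error.

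Between H2-Aa and H2-Eb1, 7548 bp upstream of H2-Aa, lay an H3K27ac peak of 1971 bp, chr17:34432320-34434290, with a score of 55.1 and rank 3336 of 69345. An H3K4me3 region of 650 bp, chr17:34433027-34433676, lay inside it. The place is in an intron of Gm20513, an annotated noncoding transcript, and not at a protein-coding start. Its H3K27ac score exceeded those at the starts of H2-Eb1 and H2-Ab1. From this peak to H2-Aa a run of 6 weaker peaks had scores from 5.93 to 13.2. Inside H2-Eb1, an H3K4me3 region of 550 bp lay over an exon, chr17:34446427-34446976, together with an H3K27ac peak of score 12.3.

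The H2-DM proteins, encoded by H2-DMa, H2-DMb1 and H2-DMb2, exchange the invariant chain remnant for other peptides. At the GENCODE starts, H2-DMa and H2-DMb2 had the lowest H3K27ac scores of the 10 genes, and H2-DMb1 and H2-DMb2 the narrowest H3K4me3 regions, while the H3K27ac score at H2-DMb1 was 30.5. At H2-DMb2, chr17:34280252-34288498, the score was 16.9 and the H3K4me3 region 200 bp wide. At H2-DMb1, chr17:34290017-34297168, H3K4me3 amounted to 2 regions of 75 bp each, chr17:34290202-34290276 and chr17:34290402-34290476, under an H3K27ac peak of 1404 bp.

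These 2 genes are close copies. In the 1000 bp on either side of the starts, 72.2% of the 32-base words at H2-DMb1 and 74.4% at H2-DMb2 occurred once in the genome, against 93.1% to 100% at the starts of the other genes. The pair shared 500 such words, 25.4% of each, and all words in both windows occurred at most 3 times. That is the number of positions up to which reads were kept according to the methods of the paper. The submitters' processing notes name another Bowtie version, so whether this limit holds for these lists is unknown. How reads that match both copies were shared out was not tested.

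Pax5 at H2-DMb2 had a score of 94.8 at the protein-coding start, chr17:34281772-34282493. A Pax5 peak of higher score, 429, lay at chr17:34279638-34280477, where a noncoding transcript of H2-DMb2 begins, and overlapped H3K27ac of score 13.2 but no H3K4me3. It was also the nearest to H2-DMa, at 7511 bp. H2-DMb1 lay 7524 bp from the Pax5 peak at the start of H2-DMb2.

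H2-DMa, at chr17:34272127-34276046, was marked, within 1000 bp of its protein-coding start, only downstream, by H3K4me3 from 225 bp and by H3K27ac from 385 bp after it, the latter with a score of 19.1. RefSeq places the starts of H2-DMa elsewhere. Its promoters, found by exact match in mm9, put them at 34259777 and 34262463, upstream of the GENCODE start. The former lay in the H3K4me3 region of 6825 bp at the starts of Brd2, a bromodomain gene, and in a Pax5 peak of score 759, with H3K27ac peaks of scores 52.6 and 14.1 within 1000 bp, and the latter had no entry of any list within that distance. Both the low H3K27ac score of H2-DMa and its lack of Pax5 thus depend on the annotation. Whether the entries near the starts of Brd2 have to do with H2-DMa was not tested.

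H2-Oa and H2-Ob encode H2-O, the partner that restrains H2-DM and is known mainly from B cells. H2-Ob, at chr17:34375848-34390850, had the highest H3K27ac score at a start of the 10 genes, 78.4, above 87.0% of marked genes, and the widest peak, 3696 bp, chr17:34375305-34379000. It also had an H3K4me3 region of 1925 bp and a Pax5 peak of score 270.0, chr17:34376310-34377343, close to the median of 269 over genes with Pax5 at a start. A Pax5 peak upstream of it, chr17:34371649-34372482, had a score of 239 and overlapped an H3K27ac peak of score 15.9. H2-Oa, at chr17:34229285-34232179, had an H3K27ac score of 43.4 and an H3K4me3 region of 700 bp but no Pax5 at its start, and the nearest Pax5 peak, of score 135, lay 4677 bp downstream.

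The highest H3K27ac score in any of the windows was not at a class II start either. It belonged to a peak of 3222 bp, chr17:34238243-34241464, between H2-Oa and Brd2, with a score of 96.3 and rank 892 of 69345. It lay 8958 bp from the start of H2-Oa and overlapped 2 H3K4me3 regions of 675 bp and 725 bp and a Pax5 peak of score 101, chr17:34238359-34239060. No annotated start lies in it. The H3K27ac peak of highest score was thus one between genes.

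**Figure D3:**
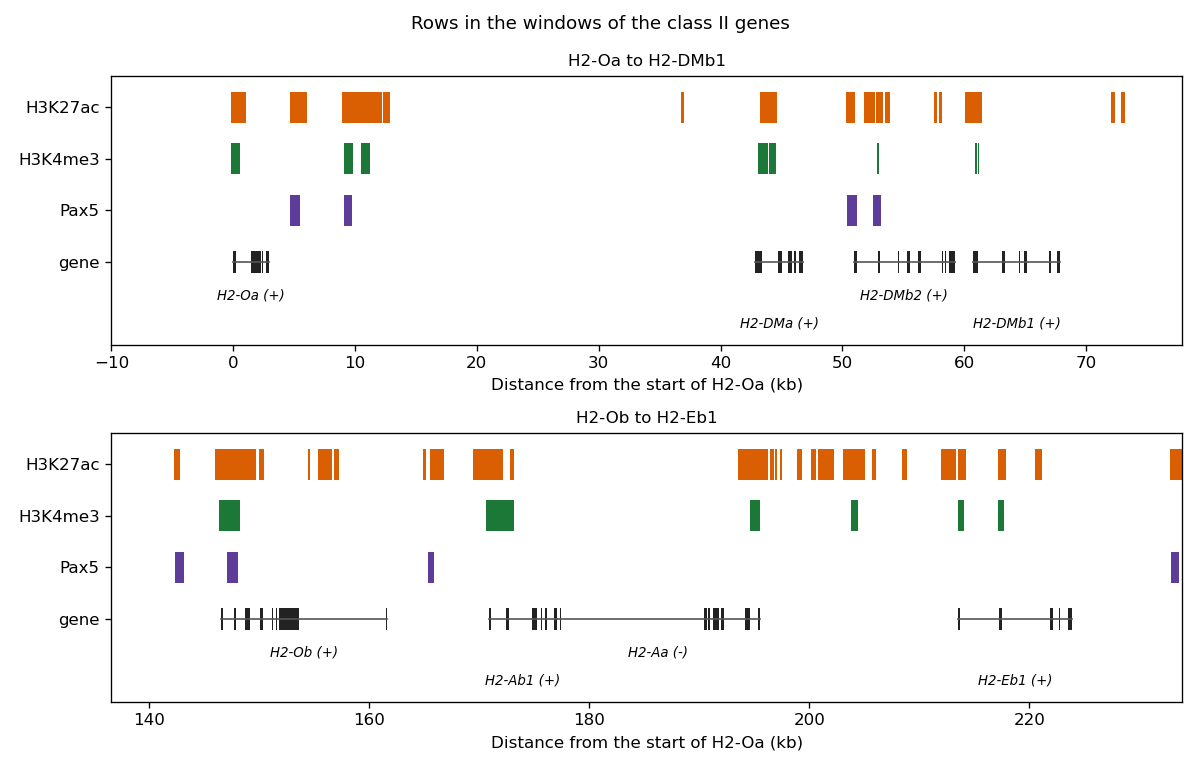
Entries of the 3 lists in the windows of the 8 class II genes of chromosome 17, by distance in kb from the start of H2-Oa, with genes as dark exons on a line and strands in brackets. Entries outside the windows are not drawn, so the stretch between the windows of H2-Oa and H2-DMa appears empty. It holds, among others, the H3K4me3 region of 6825 bp at the starts of Brd2. H3K27ac is found at all 8 genes and between them, whereas the second panel has no Pax5 peak from H2-Ab1 to H2-Eb1.

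In all, the windows of the 10 genes held 59 H3K27ac peaks, 18 H3K4me3 regions and 14 Pax5 peaks. Of the H3K27ac peaks, 41 lay more than 1000 bp from a protein-coding start, and 40 of the 59 were on chromosome 17. Of the H3K4me3 regions, 13 lay at protein-coding starts and 17 overlapped H3K27ac. All 14 Pax5 peaks overlapped an H3K27ac peak, as did 79.3% of all Pax5 peaks, and 6 of the 14 overlapped H3K4me3. Of the 14, 6 lay at protein-coding starts, and 2 of these belonged to H2-Eb2, a class II gene next to H2-Eb1, with scores of 113 and 94.3. Apart from the 79.3%, shares over the whole lists were not determined for these counts. The counts therefore describe the windows and do not set them apart from the rest of the lists.

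The entries not yet described were mostly small H3K27ac peaks inside or beside the genes. In the introns of H2-Ob, chr17:34384615-34385910 and chr17:34386036-34386568, on either side of a start of the noncoding transcript Gm20506, had scores of 15.8 and 14.1, and chr17:34379221-34379701 and chr17:34383691-34383903 had 4.81 and 5.26. H2-Ab1 had an intronic peak of score 14.1, chr17:34402085-34402442, at the end of its wide H3K4me3 region, and the Pax5 peak upstream of it overlapped an H3K27ac peak of 1262 bp with a score of 22.9. H2-DMb2 had 3 weak peaks in introns, with scores of 12.3, 5.26 and 4.14, and the flank of H2-DMb1 had peaks of scores 6.29 and 3.96. Near H2-Eb1, peaks inside Gm20513 had scores of 4.60 and 8.14, and an intronic peak of the gene had 5.94. Beside H2-Oa, the Pax5 peak of score 135 overlapped an H3K27ac peak of 1330 bp with a score of 10.3. H2-DMa had a second H3K4me3 region of 575 bp, chr17:34273302-34273876, under its H3K27ac peak. The median score of the whole H3K27ac list was 8.52, so many of these small peaks ranked in its lower part.

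The starts of the 10 genes are poor in CpG. Over 1001 bp centred on each of 12 starts, the ratio of observed to expected CpG ran from 0.0812 at H2-DMb2 to 0.371 at H2-DMa, with a median of 0.193 beside 0.553 for all protein-coding genes. The 3 Ciita starts had ratios of 0.19, 0.203 and 0.319 in their order along the gene. The relation of these ratios to the width of H3K4me3 was not tested.

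RefSeq promoter sequences, from 250 bp before to 50 bp after a start in GRCm38.p6, matched 7 of the 10 genes, with 8 promoters, and not Ciita, Cd74 or H2-Ab1. They were searched on both strands, with matches allowed to overlap, for ATTGG, the Y box core read by NF-Y, and for AGNNACNGA, a core of the X box read by the RFX complex. Of 32851 promoters, 37.4% held ATTGG. All 7 genes held it in a promoter, H2-DMa only in that of the start at 34262463. In 6 of them, all except H2-DMa, it stood on the strand of the gene with its first base between positions -90 and -43 from the RefSeq start, a range set by these 6 genes themselves, in which 6.5% of all promoters had one. The X core occurred in 4 of the 7, H2-Oa, H2-DMb1, H2-Ob and H2-Eb1, and in 17.7% of all promoters. Only H2-DMb1 and H2-Eb1 had it in front of the Y core on the same strand with a gap of 10 to 30 bp, namely 25 bp and 24 bp, an arrangement found in 0.228% of all promoters. The search found exact matches to these letters only, so an X box with other letters would have been missed.

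The stretches of 70 bases around the Y core are shown for the 4 genes where they lie wholly upstream of the GENCODE coding starts. The Y box is part of the promoter module to which Ciita is recruited. Whether Ciita acts through these stretches was not tested. Each is from RefSeq, 5′ to 3′ on the strand of the gene, with the Y core in capitals and, in H2-Eb1, the X core too. In mm9 they lie at chr17:34282059-34282128 for H2-DMb2, chr17:34375748-34375817 for H2-Ob and chr17:34442708-34442777 for H2-Eb1, all on the plus strand, and on the minus strand at chr17:34424792-34424861 for H2-Aa.
H2-DMb2: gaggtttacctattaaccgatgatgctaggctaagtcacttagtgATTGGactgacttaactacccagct
H2-Ob: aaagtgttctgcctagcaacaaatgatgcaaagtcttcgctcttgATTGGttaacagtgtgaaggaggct
H2-Aa: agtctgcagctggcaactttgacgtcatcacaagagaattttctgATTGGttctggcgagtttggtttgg
H2-Eb1: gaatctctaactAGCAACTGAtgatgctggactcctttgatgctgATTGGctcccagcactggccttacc

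Of the 6 such stretches, those of H2-Oa and H2-DMb1 included, 5 lay wholly in an H3K27ac peak. That of H2-Eb1 had 21 of its 70 bp in one, with 1 base of its Y core inside and its X core outside. H3K4me3 held 2 of them whole, H2-Oa and H2-Ob, touched that of H2-DMb2 and missed the other 3. A Pax5 peak held that of H2-DMb2 only. Of the other motifs, the Pax5 core GCGTGAC occurred in 0 of the 8 promoters and 2.09% of all, and the ETS-IRF core GAANNGAAA in 0 and 7.52%. The STAT site TTCNNNGAA occurred in the promoter of H2-DMb2 only, and in 8.3% of all.

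The factors that work with Ciita were marked throughout. All 7 genes for the RFX complex, NF-Y and Creb1, which binds beside the X box, had H3K27ac, H3K4me3 and Pax5 at a start. All 3 lists lay at a start of 34.3% of all protein-coding genes. Rfx5 had an H3K27ac score of 83.9, an H3K4me3 region of 1650 bp and a Pax5 score of 225. Nfya had 79.0, 3100 bp and 1302, and Rfxap 29.4, 1900 bp and 187. Their H3K4me3 regions were from 1650 bp to 3100 bp wide, wider than those of the class II genes except Cd74, H2-Ab1 and H2-Ob.

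Of 5 factors known to bind at Ciita promoters, 4 had all 3 lists at a start, beside 34.3% of all protein-coding genes. Spi1, which encodes PU.1 and is named Sfpi1 in the annotation, had an H3K27ac score of 168. Irf4 had 78.2, Irf1 54.5 and Irf8 24.0. Prdm1, the plasma cell factor that silences Ciita, was the exception, with H3K4me3 of 2700 bp and Pax5 of score 152 but no H3K27ac peak. Among 6 genes for antigen processing and class II turnover, 5 had H3K27ac, 6 had H3K4me3 and 3 had Pax5. The shares of all protein-coding genes were 48.3%, 52.6% and 37.4%. The cathepsin gene Ctsl, the asparaginyl endopeptidase gene Lgmn and the thiol reductase gene Ifi30 had all 3, with H3K27ac scores of 15.01, 11.95 and 20.9. Ctss, the cathepsin gene of the last step of invariant chain cleavage, had no Pax5, nor had March1 and March8, whose products remove class II molecules from the surface, and March8 had no H3K27ac.

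Of 12 class I genes and neighbours in the H2 region, with B2m, which lies elsewhere, 12 had H3K27ac, 9 had H3K4me3 and 9 had Pax5. The shares of all protein-coding genes were 48.3%, 52.6% and 37.4%. Tap1 and the nearby gene Psmb9 had identical values in all 3 lists, so they are not independent counts. H2-K1, B2m and H2-D1 had H3K27ac scores of 197, 179.9 and 141 and Pax5 scores of 466, 480.2 and 410.5. These were above the highest at a start of the 10 genes, 78.4 for H3K27ac and 389.7 for Pax5. The peptide transporter genes Tap1 and Tap2, which lie between H2-DMb1 and H2-Ob, had H3K27ac scores of 77.0 and 52.2 and Pax5 scores of 205 and 1105. The 3 neighbours without H3K4me3 were H2-Eb2, Btnl2 and H2-Ea, annotated as the pseudogene H2-Ea-ps. The H3K27ac score at H2-Ea was 8.93.

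Class II genes are also active in dendritic cells and macrophages, so marker genes of other cells were looked at. Of 6 dendritic cell genes, 2 had H3K27ac, Xcr1 with a score of 20.9 and Itgax with 5.26, 1 had H3K4me3, Zbtb46, and none had Pax5. Of 6 macrophage genes, 4 had H3K27ac, with scores of 11.4 at Csf1r, 8.16 at Itgam, 5.94 at Cx3cr1 and 4.60 at Cd14, and 4 had H3K4me3. None of the 5 T cell genes was in any list. Of 3 erythroid genes, Hbb-b1 and Klf1 had H3K27ac with scores of 33.4 and 14.1, 1 had H3K4me3, Klf1, with a widest region of 1225 bp, and Gata1 was in no list. No marker of these other cells had Pax5 at a start. Over all protein-coding genes the shares were 48.3% for H3K27ac, 52.6% for H3K4me3 and 37.4% for Pax5. The part of such cells in the class II entries was not tested.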

How the data were processed

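ChIP-seq lists of 3 libraries from pre-B cells were analysed. According to the methods of the paper, the authors discarded duplicates before mapping, cut off adapters and used Bowtie with mm9. There, a read with at most 3 equally good positions was retained. The submitters' processing notes name MACS 1.4.2 and Bowtie 0.12.9. This is another Bowtie version than that of the paper, so the limit on positions may not hold for these lists. Settings of the H3K27ac and Pax5 calls are not given in the sources used here. The deposited score is the authors' own per peak. The authors deposited other values for H3K4me3, namely bin positions, which were joined across gaps of up to 100 bp. NCBIM37, the assembly mm9, and GENCODE M1 gave genes and starts. An entry overlapping by at least 1 bp within 1000 bp was counted at a start, and within 500 bp for Ciita, whose transcript starts within 200 bp were joined. The separate entry of Ciita-206 was merged with Ciita. The genes and lists, named as 10 members, 4 pathway lists and 5 marker lists, were chosen with earlier results of these data known, and 1 gene of the pathway lists is not reported here. List genes are given by counts, with examples. Alternatives are given in the closing section. Counting was tested on simulated lists. Python 3.11.15, numpy 2.4.6 and matplotlib 3.10.9 were used.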

Additional observations from a re-analysis of the deposited data

How the results depend on the processing

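Of 42 alternative counts, 34 were within 1.5 times the reported ones. H3K27ac lay at the starts of 10 genes in all alternatives except the midpoint rule, under which H2-DMa dropped out and 9 remained, and H3K4me3 at 10 except under that rule, under which Cd74 dropped out and 9 remained. Pax5 lay at the starts of 4 genes with all distances, but at 2, Ciita and H2-Ob, when the higher-scoring 50% of the list was used. In that part of the lists, the windows held 35 H3K27ac peaks and 6 Pax5 peaks. With no flanks they held 33 H3K27ac and 8 Pax5 peaks, and with flanks of 20 kb they held 24 Pax5 peaks. Of the Ciita starts, 2 counted as having Pax5 within 500 bp, but 1 within 250 bp and 1 by the midpoint, the downstream start being the one lost, since the Pax5 peak ends before it. The upstream Ciita start had no entry in any alternative. H3K4me3 has no score, so no list of its higher-scoring part could be made. No paired analysis was possible because every target has 1 library. Depth is unknown, and the absence of an entry means only that none was called.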
